A study of Mus musculus with 8 samples.

Results

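This account describes 10 genes of the Stat5 pathway in mouse splenic B cells: the signal transducers Stat5a and Stat5b, the interleukin-2 receptor chains Il2ra, Il2rb and Il2rg, the feedback inhibitors Cish, Socs1 and Socs2, and the kinases Pim1 and Pim2. They were taken by symbol, whatever their values, from 37583 gene identifiers in the count files, and all 10 were found. The set was chosen with their counts in these libraries already known. Their changes are therefore given as descriptions with their errors. Where one of these genes is said to be called, this states on which side of the threshold it fell in the fit over all genes, and it is not evidence for the change. Tests are reported for other genes of the pathway. Their lists were also chosen with earlier results of these data known, so their p-values are not independent of that choice.

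The 8 RNA libraries came from splenic B cells of C57BL/6 mice (strain B6). For the TLR group (2 libraries), cells were kept with CpG ODN1668 for 3 days, and LPS, PMA and ionomycin were added for the last 5 hours. For the CpG group (3 libraries), they received CpG ODN1668 for 3 days and nothing more. Naive B cells made up the remaining 3 libraries. No group is labelled as kept for 3 days without CpG, so CpG and time in culture cannot be told apart. Wording such as a rise with or after CpG therefore names the CpG over naive comparison. CpG ODN1668 is a synthetic DNA that activates the receptor TLR9, LPS is a ligand of TLR4, PMA activates protein kinase C, and ionomycin lets calcium into the cell. The labels call the TLR and CpG cells Bregs, that is regulatory B cells. No age, sex or number of animals is given, and whether replicates are separate mice or cultures is not stated, so errors and p-values measure the spread between these libraries, which may be technical.

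Stat5 proteins lie inactive in the cytoplasm until a cytokine receptor is engaged. Janus kinases bound to the receptor then phosphorylate them, and they pair, enter the nucleus and switch on their target genes. The receptor for interleukin-2 is built from an alpha chain (Il2ra, CD25), which binds the cytokine but does not signal, a beta chain (Il2rb), which is shared with the interleukin-15 receptor and recruits Stat5, and a common gamma chain (Il2rg), which is shared by a family of receptors. Cish and the Socs genes are classical Stat5 targets whose proteins shut the pathway off again, and the Pim kinases, targets as well, promote survival and growth. In B lymphocytes Stat5 is best known from the response of precursor cells to interleukin-7.

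Gene counts summed to between 15804311 and 20069272 per library, and a single count equalled 0.0498 to 0.0633 CPM, the depth-scaled unit of all levels here. Replicate 1 of each group has the prefix RCa1 in its deposited name and the others have RCa18. The meaning of the prefix is not given. The summary line for alignments that were not unique held 37.5% to 50.2% of all counts, summary lines included, in RCa1 and 14.7% to 21.5% in RCa18 libraries. The B cell markers Cd79a, Cd79b, Ms4a1, Pax5 and Cd22 had counts in each group, and all 5 were called lower in TLR than in CpG libraries. Cd79a stood at 544.5 ± 12.2 CPM in TLR, 1344 ± 371 CPM in CpG and 1338 ± 111 CPM in naive libraries, and Ms4a1 at 64.5 ± 17.1 CPM in TLR, 1995 ± 503 CPM in CpG and 2034 ± 189 CPM in naive libraries (SD, n = 2 TLR, 3 CpG and 3 naive). Summed markers of natural killer and T cells (given with Il2rb), macrophages and monocytes, basophils and mast cells, and neutrophils were higher in each naive library than in any TLR or CpG library. The sum of the dendritic cell markers overlapped between CpG and naive libraries, although single markers differed. The 10 macrophage and monocyte markers summed to 12.7 to 18.2 CPM in TLR, 17.2 to 37.4 CPM in CpG and 167 to 1280 CPM in naive libraries, and the 6 dendritic cell markers to 4.30 to 6.92 CPM in TLR, 12.2 to 41.6 CPM in CpG and 24.6 to 61.4 CPM in naive libraries. Of the dendritic cell markers, Siglech had 1 count in CpG and 463 in naive libraries, Clec9a 3 and 159, Itgax 86 and 831, and Zbtb46 29 and 192. Flt3 went the other way, with 1116 counts in CpG and 571 in naive libraries, as did Xcr1 with 86 and 60. The 5 basophil and mast cell markers summed to 0 to 0.103 CPM in TLR, 0.267 to 0.491 CPM in CpG and 6.16 to 13.1 CPM in naive libraries, and the 4 neutrophil markers to 0 CPM in TLR, at most 0.0534 CPM in CpG and 0.150 to 15.9 CPM in naive libraries. In bulk RNA, fewer cells of a type and less RNA per cell cannot be told apart.

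Across the 13964 genes tested, 38.8% were called between TLR and CpG, 45.5% between CpG and naive, and 61.2% between TLR and naive libraries (edgeR quasi-likelihood test, adjusted p below 0.05). All 10 genes passed the filter on low counts. Of them, 5 were called higher and none lower in TLR than in CpG libraries (19% and 19.8% of all tested genes). Between CpG and naive libraries 4 were called higher and 3 lower (23.5% and 21.9% of all), and between TLR and naive libraries 6 higher and 2 lower (31.6% and 29.7% of all). Groups did not overlap for 7 of the 10 genes in TLR and CpG (59.3% of all), 9 in CpG and naive (56% of all) and 8 in TLR and naive libraries (78.1% of all). As the genes were chosen with these values known, nothing is read from these counts. Their median log2 fold change was 0.84 for TLR over CpG, -0.04 for CpG over naive and 1.10 for TLR over naive, against medians of -0.02, 0.01 and 0.01 over all tested genes. The comparisons share libraries, so each is given with its own values.

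**Figure D1:**
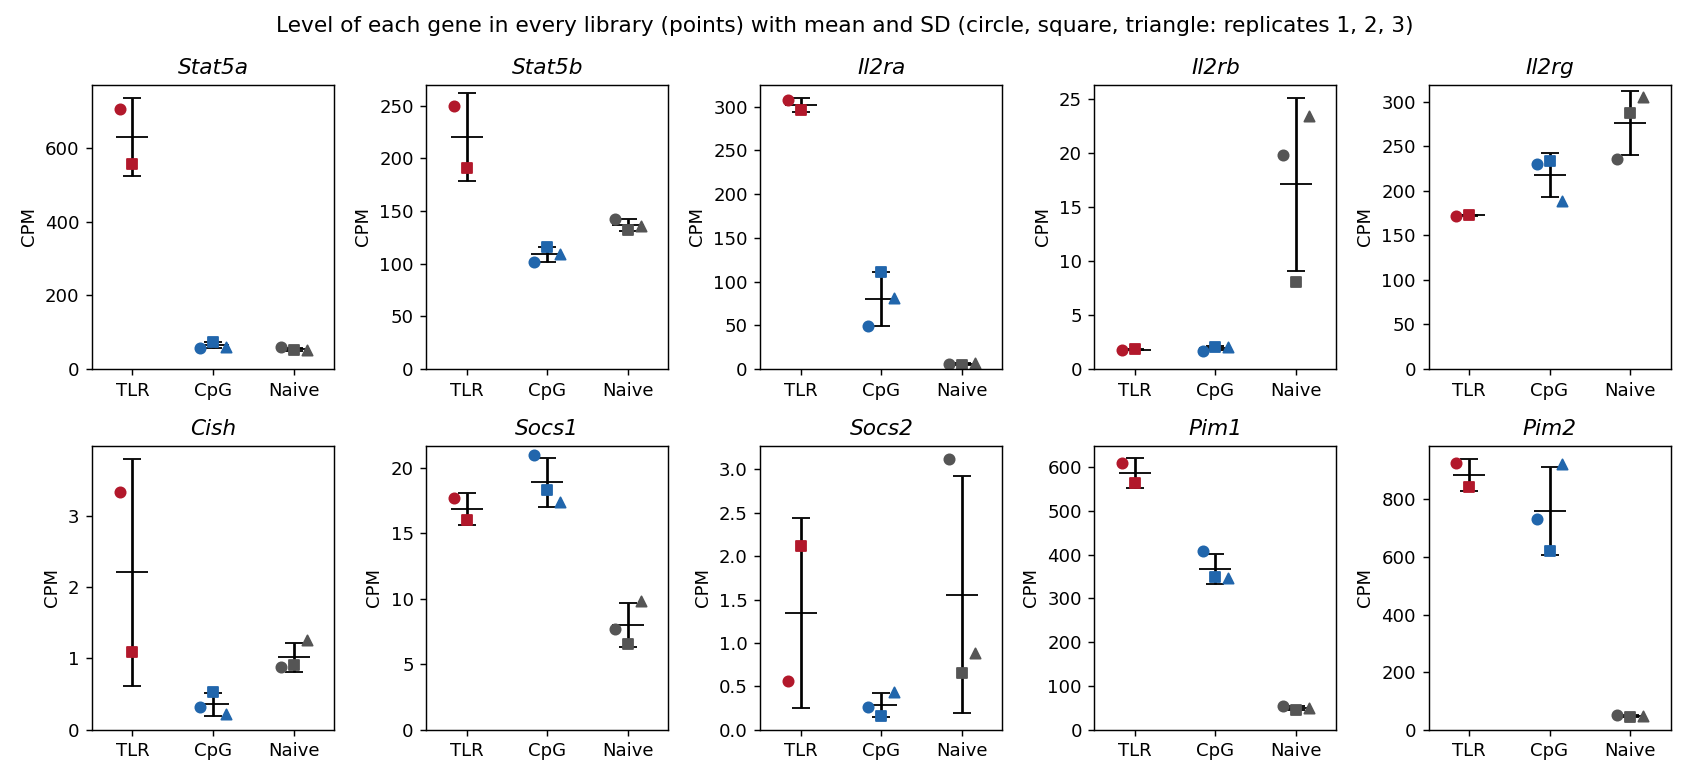
Level of each of the 10 genes in CPM (vertical axis, from 0) in the TLR, CpG and naive libraries, 1 point per library, with the mean as a bar and the SD as whiskers. Stat5a stands at 706 and 557 CPM in TLR libraries and at no more than 72.9 CPM in the other 6, while Pim1, Pim2 and Il2ra are already above their naive levels in CpG libraries.

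Stat5a was high in TLR cells alone among the 3 groups. It had 706 and 557 CPM in TLR replicates 1 and 2, against 57.5, 72.9 and 60.6 CPM in CpG replicates 1 to 3 and 58.6, 51.7 and 51.5 CPM in naive replicates 1 to 3. The TLR libraries lay far above all others, and the CpG and naive libraries overlapped. This was a 9.92-fold higher level in TLR than in CpG cells (log2 fold change 3.31 ± 0.15, SE, n = 2 and 3), whereas CpG and naive cells differed by 0.24 ± 0.14. Within the RCa18 libraries TLR over CpG was 3.06, and in the RCa1 pair it was 3.62. CpG over naive was 0.37 in RCa18 libraries, where it was called, and -0.03 in the RCa1 pair.

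Stat5b, the neighbouring gene whose protein resembles Stat5a closely, differed less. It stood at 249.5 and 191 CPM in TLR libraries, against 101, 116 and 109.5 CPM in CpG libraries and 142.5, 131.5 and 136 CPM in naive libraries, with no overlap between any pair of groups. TLR libraries were 2.02-fold above CpG libraries (1.02 ± 0.13). CpG libraries were slightly below naive ones (-0.33 ± 0.12), a difference that was called in the full set and lost its call when any one of the 6 CpG and naive libraries was left out (-0.37 to -0.28). Both genes lie on chromosome 11 in opposite orientation, Stat5a at chr11:100859351-100885169 on the plus strand and Stat5b at chr11:100780731-100850724 on the minus strand (GRCm38, GENCODE M21).

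The order of the 2 Stat5 genes differed between groups. Per kilobase of exon, Stat5a made up 68.7% and 69.4% of the summed Stat5 level in TLR libraries, against 30.6%, 32.9% and 30.1% in CpG libraries and 24.2%, 23.4% and 22.7% in naive libraries. Stat5b was thus the more abundant message in each naive and CpG library and Stat5a in both TLR libraries, and no group overlapped another in this share. The summed level was 144 and 112.5 CPM per kb in TLR libraries, against 26.3 to 31.1 in CpG libraries and 31.0 to 33.9 in naive libraries. Reads that fit both genes equally were not counted, and how many were lost was not measured. Of the exonic bases of Stat5a 72 also overlap Stat3 on the opposite strand, which is 1.01% of its exonic length.

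**Figure D2:**
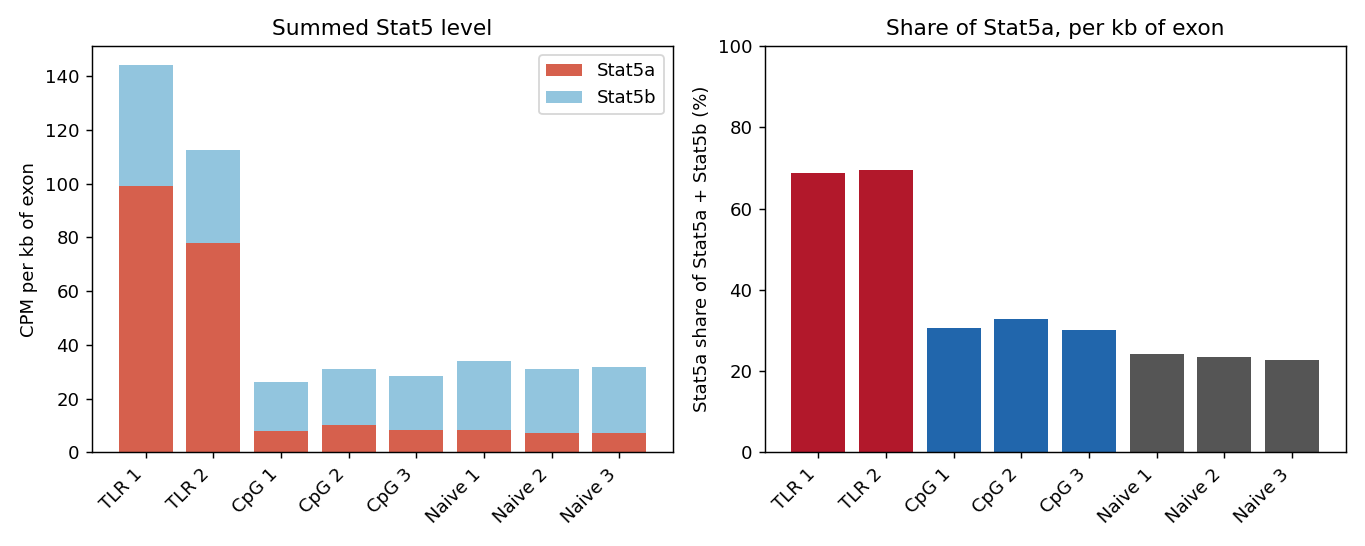
Left, Stat5a and Stat5b levels in CPM per kb of exon stacked for each library. Right, the share of Stat5a in their sum in percent. Stat5a takes 68.7% and 69.4% in the TLR libraries and 22.7% to 32.9% in the other 6.

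The promoter sequences were searched for motifs of the STATs themselves and of factors known from TLR and PMA signalling: the STAT motif TTCNNNGAA, the AP-1 motif TGANTCA, and the NF-kB and IRF consensus motifs, each on both strands. The windows were the 250 bases before the start of 8 of the 10 genes (11 windows, RefSeq, GRCm38.p6). The STAT and AP-1 motifs were found in none of the 11, against 7.02% and 6.75% of all 32851 windows of that length. The NF-kB consensus was found in 2 of the 11 (7.25% of all windows), for Stat5a and Il2ra, and the IRF motif in 1 (2.98% of all), for Socs1. These are matches of letters, and a missing match says only that these letters are not in this window. Of Stat5a, the 100 bases that hold the NF-kB match are shown because this gene had the largest TLR over CpG ratio of the set. They lie upstream of the second start, at chr11:100860234-100860333 on the plus strand, with the match in capitals.
Stat5a: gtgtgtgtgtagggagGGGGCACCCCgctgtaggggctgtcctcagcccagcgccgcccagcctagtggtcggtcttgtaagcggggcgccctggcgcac

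Among the receptor chains, Il2ra was higher after each step. It had 307 and 296 CPM in TLR libraries, 49.1, 111 and 80.6 CPM in CpG libraries and 5.37, 4.91 and 7.05 CPM in naive libraries. No group overlapped another. CpG cells were 13.9-fold above naive cells (3.80 ± 0.29), TLR cells 3.76-fold above CpG cells (1.91 ± 0.27) and 52.2-fold above naive cells (5.71 ± 0.32). The CpG libraries differed by more than a factor of 2 among themselves, and the TLR over CpG value was 1.63 in RCa18 libraries and 2.65 in the RCa1 pair. Foxp3, which marks the regulatory T cells known for high CD25, had 6 counts in TLR, 8 in CpG and 18 in naive libraries in all. Of the exonic bases of Foxp3 31.5% overlap other genes, where reads may have been set aside as ambiguous. The part of regulatory T cells in the Il2ra level was not tested. The Il2ra promoter is shown for its NF-kB consensus, where matches on both strands overlap (in capitals, from 201 bases before the start), at chr2:11642542-11642791 on the plus strand.
Il2ra: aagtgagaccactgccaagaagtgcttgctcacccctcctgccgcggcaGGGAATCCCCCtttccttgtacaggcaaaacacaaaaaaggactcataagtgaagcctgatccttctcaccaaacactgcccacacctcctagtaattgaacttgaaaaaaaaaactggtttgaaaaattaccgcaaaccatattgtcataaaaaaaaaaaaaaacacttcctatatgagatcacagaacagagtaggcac

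Il2rb, the signalling partner, was lower in stimulated cells. It had 1.75 and 1.81 CPM in TLR libraries, 1.68, 2.03 and 2.02 CPM in CpG libraries and 19.9, 8.06 and 23.4 CPM in naive libraries. The naive libraries lay above all others, and TLR and CpG libraries overlapped (-0.10 ± 0.44). CpG cells stood at 0.112 of the naive level (-3.16 ± 0.38) and TLR cells at 0.105 of it (-3.26 ± 0.45). Natural killer and T cells are known to carry this chain, and their markers moved with it. The 9 natural killer cell markers summed to 1.25 and 1.75 CPM in TLR libraries, 1.68, 2.78 and 2.51 CPM in CpG libraries and 76.4, 13.4 and 69.0 CPM in naive replicates 1 to 3, so that naive replicate 2 was lowest in both measures. Of the 9, Ncr1, Klra4 and Gzma had no count in any TLR or CpG library, against 303, 230 and 758 counts in naive libraries. Prf1 kept the most counts, with 46 in TLR and 113 in CpG libraries, against 358 in naive libraries. The 9 T cell markers summed to 0.906 and 1.45 CPM in TLR, 0.655 to 1.82 CPM in CpG and 4.96 to 20.4 CPM in naive libraries. The part of these cells in the Il2rb difference was not tested.

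**Figure D3:**
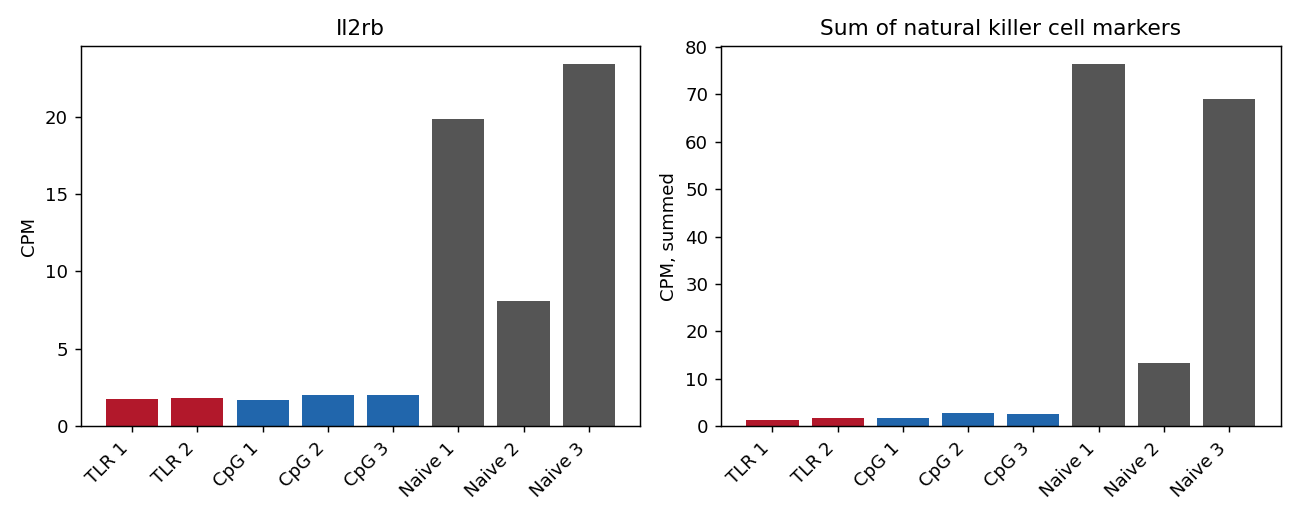
Il2rb (left) and the sum of 9 natural killer cell markers (right) in CPM for each library. Both are highest in naive replicates 1 and 3, lower in naive replicate 2 (8.06 and 13.4 CPM) and below 3 CPM in the 5 TLR and CpG libraries.

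Il2rg, the common gamma chain, was present in each library at levels that differed little. It had 172 and 173 CPM in TLR libraries, 230.5, 234 and 189 CPM in CpG libraries and 235.5, 287 and 305 CPM in naive libraries. The groups were ordered without overlap, TLR lowest and naive highest. TLR cells stood at 0.626 of the naive level (-0.68 ± 0.15), at 0.793 of the CpG level (-0.34 ± 0.15), and CpG cells at 0.789 of the naive level (-0.34 ± 0.13). The last of these was not called in the full set. It was called on all 8 libraries with RLE scaling (-0.38), library size alone (-0.36), DESeq2 (-0.38) and a filter at 1 CPM (-0.36), and also without naive replicate 1 (-0.46) and in RCa18 libraries (-0.49), against -0.03 in the RCa1 pair. Of its exonic bases 30.5% are shared with Gm20489 on the same strand, where reads may have been set aside as ambiguous. Per kilobase of exon the order of the chains in TLR libraries was Il2rg at 72.3, Il2ra at 52.8 and Il2rb at 0.416 CPM per kb. In CpG libraries it was Il2rg at 91.2, Il2ra at 14.0 and Il2rb at 0.445. In naive libraries Il2rb stood above Il2ra (3.99 and 1.01 CPM per kb), both far below Il2rg at 116. In naive replicate 2 Il2rb was also above Il2ra, at 1.88 and 0.860 CPM per kb.

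**Figure D4:**
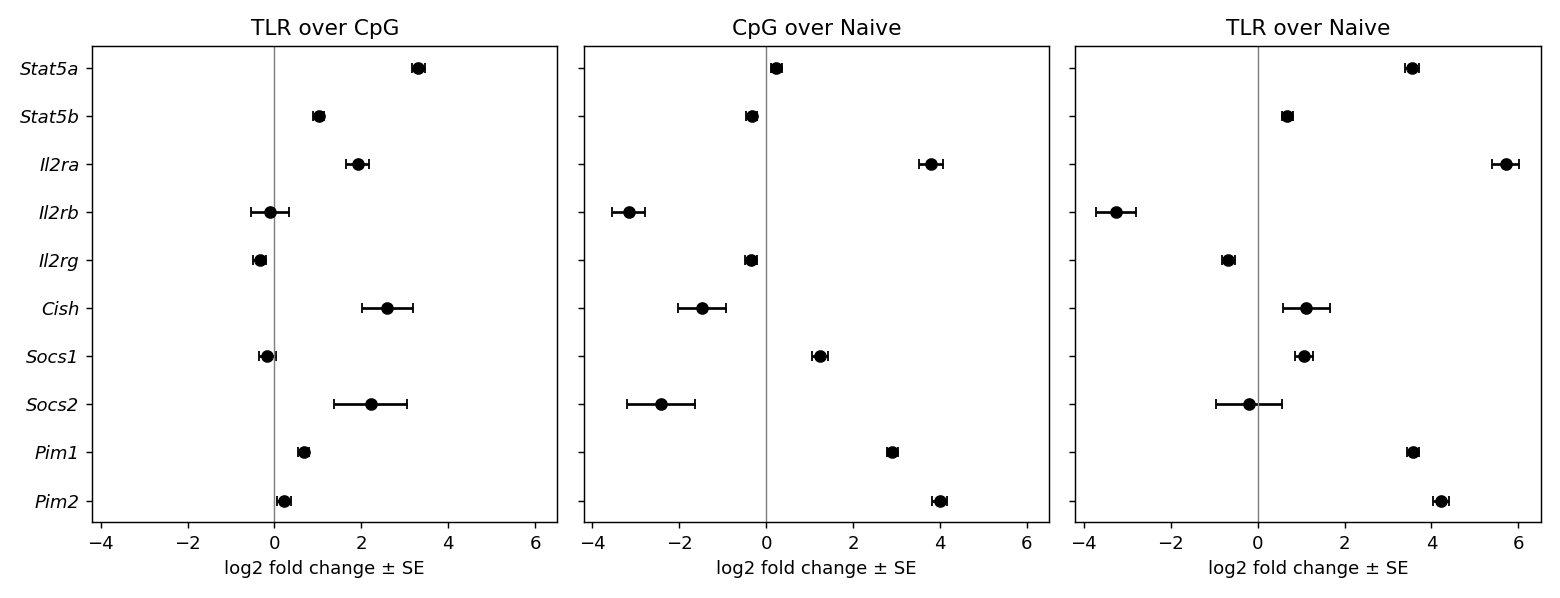
Log2 fold change with SE (horizontal axis, 0 for no difference) of each of the 10 genes for TLR over CpG, CpG over naive and TLR over naive. Stat5a stands at 3.31 for TLR over CpG and at 0.24 for CpG over naive, and the Pim genes show the reverse order of sizes.

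Cish, often used as a readout of active Stat5, had low counts in each library. It had 59 and 21 counts in TLR libraries (3.34 and 1.08 CPM), 5, 10 and 4 counts in CpG libraries (0.323, 0.534 and 0.218 CPM) and 17, 18 and 24 counts in naive libraries (0.886, 0.902 and 1.25 CPM). Both TLR libraries lay above the CpG libraries, and the TLR and naive libraries overlapped. The TLR over CpG log2 fold change was 2.59 ± 0.59, or 1.57 without TLR replicate 1, where the call was lost, and 3.19 without TLR replicate 2. CpG cells stood at 0.360 of the naive level (-1.48 ± 0.56). This was not called in the full set and was called lower with RLE scaling and with a filter at 1 CPM. TLR over naive was 1.12 ± 0.54, or 0.10 without TLR replicate 1 and 1.72 without TLR replicate 2, where it was called. Of its exonic bases 11.5% overlap the genes Gm17040 and Gm17041 on the opposite strand, which counting without strand cannot separate. Per kilobase Cish reached 0.345 CPM in TLR libraries, against 88.5 for Stat5a and 39.7 for Stat5b in the same libraries.

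Socs1, which binds and inhibits Janus kinases, was higher after CpG and showed no further step. It had 17.7 and 16.01 CPM in TLR libraries, 21.0, 18.3 and 17.4 CPM in CpG libraries and 7.71, 6.51 and 9.81 CPM in naive libraries. CpG and TLR libraries overlapped each other (-0.16 ± 0.20) and lay above the naive ones, by 2.35-fold for CpG (1.24 ± 0.19) and by 2.10-fold for TLR (1.07 ± 0.20). Its promoter is shown for the IRF motif, which occurs in 2 overlapping copies (in capitals, from 83 bases before the start), at chr16:10785537-10785786 on the minus strand.
Socs1: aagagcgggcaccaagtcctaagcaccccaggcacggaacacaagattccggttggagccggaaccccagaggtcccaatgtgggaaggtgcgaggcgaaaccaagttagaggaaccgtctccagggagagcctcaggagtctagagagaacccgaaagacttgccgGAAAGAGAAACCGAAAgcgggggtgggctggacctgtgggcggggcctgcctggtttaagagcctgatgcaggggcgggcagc

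Socs2, known for restraining growth hormone signalling through Stat5, was rare and uneven. It had 10 and 41 counts in TLR libraries (0.566 and 2.12 CPM), 4, 3 and 8 counts in CpG libraries (0.258, 0.160 and 0.437 CPM) and 60, 13 and 17 counts in naive libraries (3.12, 0.651 and 0.887 CPM). The CpG libraries lay below all others, and TLR and naive libraries overlapped. CpG over naive was -2.42 ± 0.79, or -1.42 without naive replicate 1, where the call was lost. The call was also lost without CpG replicate 1 (-2.35), without CpG replicate 2 (-2.11), with the replicate block (-2.30) and in RCa18 libraries (-1.35). TLR over CpG was 2.21 ± 0.85, which was not called in the full set, or 2.86 without TLR replicate 1 (called) and 0.97 without TLR replicate 2. TLR over naive was -0.20 ± 0.76, or -1.44 without TLR replicate 2 and 0.79 without naive replicate 1.

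Per kilobase of exon, Pim1 and Pim2 had the highest mean levels of the 10 genes in TLR and in CpG libraries. Pim1 had 611 and 563 CPM in TLR libraries, 407.5, 349 and 347.5 CPM in CpG libraries and 53.3, 44.2 and 49.4 CPM in naive libraries, without overlap between groups. CpG cells were 7.52-fold above naive cells (2.91 ± 0.13) and TLR cells 1.59-fold above CpG cells (0.67 ± 0.13). Pim2 had 925 and 844 CPM in TLR libraries, 731, 622 and 924 CPM in CpG libraries and 50.1, 43.5 and 48.9 CPM in naive libraries. For Pim2 the TLR and CpG libraries overlapped (0.22 ± 0.17), and CpG cells were 15.98-fold above naive cells (4.00 ± 0.17). Per kilobase of exon Pim1 and Pim2 were close in naive libraries, at 14.6 and 17.0 CPM per kb, and apart in CpG libraries, at 109.5 and 272, and in TLR libraries, at 175 and 316.5. In the RCa1 pair CpG over naive was 2.93 for Pim1 and 3.87 for Pim2, and in RCa18 libraries it was 2.89 and 4.06.

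The other genes of the pathway were taken as 56 genes in 8 lists, of which 44 passed the filter. The lists were chosen with earlier results of these data known. Between TLR and CpG libraries 11 rose and 10 fell (19% and 19.8% of all tested genes), between CpG and naive libraries 13 rose and 13 fell (23.5% and 21.9% of all), and between TLR and naive libraries 14 rose and 16 fell (31.6% and 29.7% of all). Their median log2 fold change was 0.05 for TLR over CpG, -0.15 for CpG over naive and -0.17 for TLR over naive. The p-values below are from the edgeR quasi-likelihood test, adjusted over all 13964 genes, and levels are means ± SD over 2 TLR, 3 CpG and 3 naive libraries.

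**Figure D5:**
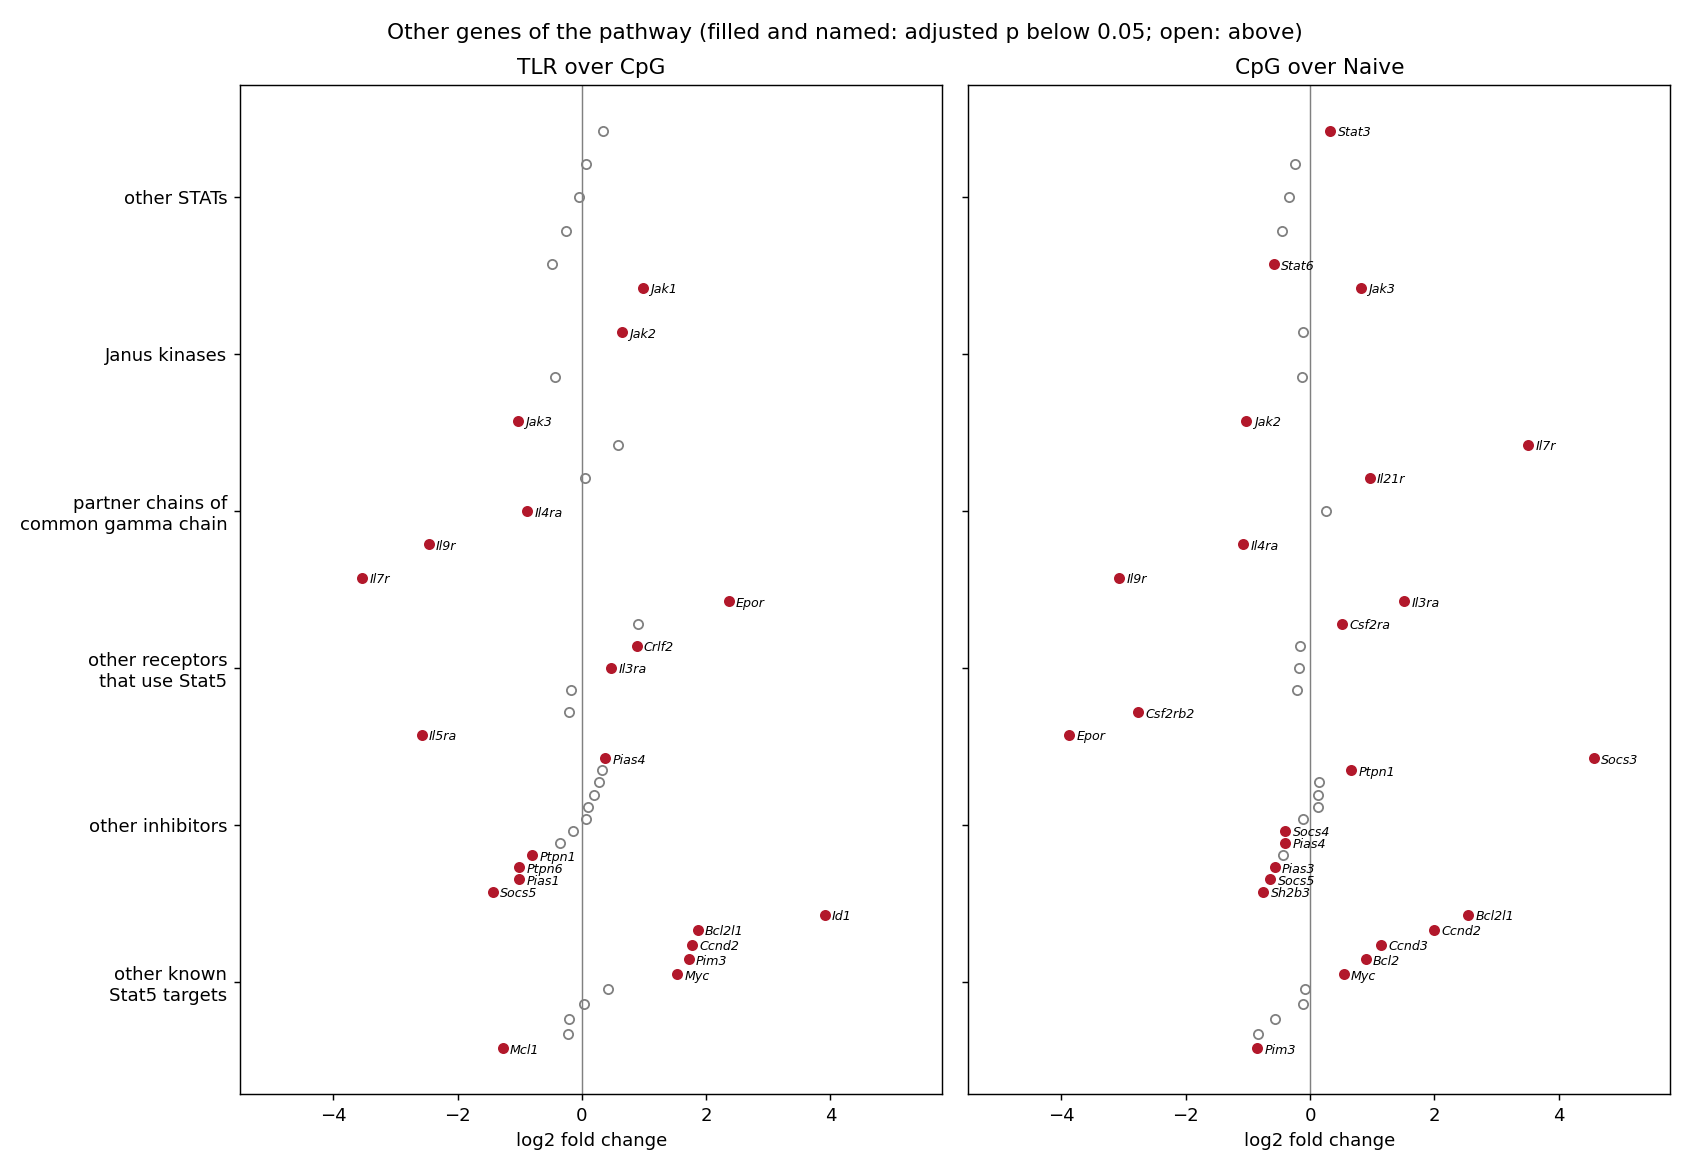
Log2 fold change of the tested pathway genes other than Il15, grouped by list, for TLR over CpG (left) and CpG over naive (right). Filled named points passed the edgeR test at an adjusted p below 0.05, and open points did not. Other STATs show no filled point for TLR over CpG, while 5 of the 10 other known Stat5 targets are filled on the right of 0 there.

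None of the 5 other STAT genes passed the test between TLR and CpG libraries in the full set. Stat2, at -0.49 ± 0.21 there (edgeR adjusted p = 0.0890), was called lower with DESeq2 (-0.51), with the replicate number as a block (-0.60) and without CpG replicate 3 (-0.66). Stat6, at 0.34 ± 0.14 (edgeR adjusted p = 0.0788), was called higher with the block (0.38) and with the prefix as a term (0.37). Stat3, the nearest neighbour of Stat5a, stood at 254 ± 6.43 CPM in TLR and 304 ± 39.8 CPM in CpG libraries (log2 fold change -0.26 ± 0.13, edgeR adjusted p = 0.144). Between CpG and naive libraries Stat6, the transducer of interleukin-4, fell (255 ± 16.7 CPM in CpG and 380.0 ± 48.6 CPM in naive cells, -0.58 ± 0.12, edgeR adjusted p = 0.00427). Stat3 rose there against 242 ± 9.27 CPM in naive libraries (0.33 ± 0.12, edgeR adjusted p = 0.0428), a call that was lost in 13 of 17 alternative analyses, among them without CpG replicate 2 (0.23, edgeR adjusted p = 0.139) and without any one of the naive libraries. Between TLR and naive libraries Stat2 was the one STAT gene of the list that passed, and it fell (-0.72 ± 0.21, edgeR adjusted p = 0.0125; -0.49, edgeR adjusted p = 0.124 without TLR replicate 1).

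The Janus kinases moved in opposite directions at the last step. Jak1, which pairs with the beta chain of the interleukin-2 receptor, rose to 1443 ± 441 CPM in TLR cells, against 730.1 ± 169 CPM in CpG cells (0.98 ± 0.23, edgeR adjusted p = 0.00835), with 1131 and 1754 CPM in TLR replicates 1 and 2 and 535, 838 and 817 CPM in CpG replicates 1 to 3. Jak3, which binds the common gamma chain, fell to 108 ± 3.29 CPM in TLR cells, against 219 ± 44.9 CPM in CpG cells (-1.02 ± 0.17, edgeR adjusted p = 0.00104). Jak3 had risen with CpG against 124 ± 3.01 CPM in naive cells (0.82 ± 0.14, edgeR adjusted p = 0.00148). Of the exonic bases of Jak3 7.55% are shared with Insl3 on the same strand. Jak2, which serves receptors such as those for interleukin-3 and interleukin-5, fell with CpG (93.0 ± 14.5 CPM in CpG and 189 ± 10.1 CPM in naive cells, -1.02 ± 0.13, edgeR adjusted p = 0.000245) and rose at the last step (145 ± 16.2 CPM in TLR, 0.64 ± 0.15, edgeR adjusted p = 0.00635). Tyk2 did not pass in either step in the full set (-0.44 ± 0.17 for TLR over CpG, edgeR adjusted p = 0.0620; -0.11 ± 0.15 for CpG over naive, edgeR adjusted p = 0.560). It was called lower for TLR over CpG with DESeq2 (-0.46), the block (-0.45), the prefix term (-0.47) and without CpG replicate 2 (-0.56), and for CpG over naive in RCa18 libraries (-0.32) and without CpG replicate 1 (-0.29). Without TLR replicate 2 the TLR over CpG calls of Jak1 (0.63, edgeR adjusted p = 0.107) and Jak2 (0.52, edgeR adjusted p = 0.0692) were lost.

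Messages of the cytokines that use the common gamma chain were near 0. Over all libraries of a group, Il2 had 6 counts in TLR, 7 in CpG and 13 in naive libraries, Il4 had 1 in TLR, 1 in CpG and 5 in naive, Il7 had 1 in TLR, 0 in CpG and 2 in naive, and Il21 had 2 in TLR libraries and none in CpG or naive ones. Il9 had no count in any library. Il15 was the one that passed the filter, with 2 counts in TLR, 3 in CpG and 131 in naive libraries. The naive level was 39.3 times that in CpG libraries (exact 95% counting interval 13.2 to 193) and 41.6 times that in TLR libraries (11.3 to 347). These intervals cover counting error only. Macrophages and dendritic cells are known sources of Il15. The summed macrophage and monocyte markers were higher in naive libraries, as given above. The dendritic cell markers overlapped between CpG and naive libraries in their sum. Singly, Siglech, Clec9a, Itgax and Zbtb46 had fewer counts in CpG than in naive libraries, and Flt3 and Xcr1 had more. The part of macrophages and dendritic cells in the Il15 difference was not tested.

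The chains that pair with the common gamma chain in other receptors split. Il21r, the interleukin-21 receptor, rose with CpG (656 ± 49.6 CPM in CpG and 337.5 ± 17.8 CPM in naive cells, 0.96 ± 0.12, edgeR adjusted p = 0.000227) and stood at 681 ± 94.5 CPM in TLR libraries. Il4ra, the interleukin-4 receptor, fell at both steps, to 119 ± 18.2 CPM in TLR cells, against 218 ± 1.68 CPM in CpG cells (-0.88 ± 0.14, edgeR adjusted p = 0.00108) and 461 ± 51.5 CPM in naive cells (CpG over naive -1.08 ± 0.13, edgeR adjusted p = 0.000138). Il9r, the interleukin-9 receptor, did the same with 3.14 ± 0.358 CPM in TLR, 17.3 ± 2.38 CPM in CpG and 146 ± 31.7 CPM in naive cells (-2.46 ± 0.23 for TLR over CpG, edgeR adjusted p = 4.08e-05; -3.07 ± 0.18 for CpG over naive, edgeR adjusted p = 2.69e-06). Il7r, the interleukin-7 receptor of precursor B cells, was high in CpG cells alone among the 3 groups, with 4.64 and 3.46 CPM in TLR, 25.3, 32.9 and 82.6 CPM in CpG and 2.24, 2.25 and 7.83 CPM in naive libraries. It fell by 3.54 on the log2 scale at the last step (SE 0.69, edgeR adjusted p = 0.00284; -2.84 without CpG replicate 3). Its CpG over naive rise was 3.52 ± 0.58 (edgeR adjusted p = 0.000987; 4.37 without naive replicate 3). Il15ra was not called at either step. In TLR over CpG none of the 5 rose and 3 fell (19% and 19.8% of all tested genes). In CpG over naive 2 rose and 2 fell (23.5% and 21.9% of all).

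Of the 10 other receptor genes whose products use Stat5, 7 were tested. In TLR over CpG 3 rose (Crlf2, Il3ra and Epor) and 1 fell (Il5ra), against 19% and 19.8% of all tested genes. In CpG over naive 2 rose (Il3ra and Csf2ra) and 2 fell (Csf2rb2 and Epor), against 23.5% and 21.9% of all. Il5ra, the alpha chain for interleukin-5, fell to 9.60 ± 1.17 CPM in TLR cells, against 57.5 ± 5.16 CPM in CpG cells (-2.58 ± 0.17, edgeR adjusted p = 7.36e-06), and its naive level was 64.3 ± 7.57 CPM. Crlf2, the receptor chain for TSLP, rose to 118 ± 1.32 CPM in TLR cells, against 64.1 ± 2.21 CPM in CpG cells (0.88 ± 0.11, edgeR adjusted p = 0.000193). Il3ra, the alpha chain for interleukin-3, rose with CpG (37.7 ± 2.78 CPM in CpG and 13.2 ± 1.66 CPM in naive cells, 1.52 ± 0.13, edgeR adjusted p = 2.36e-05) and stood at 52.2 ± 0.384 CPM in TLR cells (0.47 ± 0.14 over CpG, edgeR adjusted p = 0.0231, lost without either TLR library or CpG replicate 2, at 0.0648 to 0.106). Csf2ra had 41.6 and 40.7 CPM in TLR libraries, 64.0, 38.0 and 41.4 CPM in CpG libraries and 33.7, 32.5 and 33.7 CPM in naive libraries, and its call (0.52 ± 0.18, edgeR adjusted p = 0.0402) was lost in 9 alternatives, among them without CpG replicate 1 (0.26). Epor rested on 19 counts in TLR, 5 in CpG and 87 in naive libraries, and its TLR over CpG call (edgeR adjusted p = 0.0489) was lost without any one TLR or CpG library and without naive replicate 2 or 3. The beta chain genes Csf2rb and Csf2rb2 are close paralogs, so their counts are uncertain, and Csf2rb2 had 59 counts in TLR, 45 in CpG and 331 in naive libraries. The ligand genes Il3, Il5, Csf2 and Tslp did not pass the filter, with at most 11 counts in any group.

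Among the 12 other inhibitors 1 rose and 4 fell in TLR over CpG (19% and 19.8% of all tested genes). In CpG over naive 2 rose and 5 fell (23.5% and 21.9% of all). The 1 that rose in TLR over CpG was Pias4 (0.38 ± 0.13, edgeR adjusted p = 0.0397), a call kept in 7 of 17 alternatives. Of the 5 that fell in CpG over naive, Socs4 and Pias4 kept their calls in 11 and 14 of 17 alternatives. Ptpn6 was not called there in the full set (-0.44 ± 0.16, edgeR adjusted p = 0.0511). It stayed uncalled in 5 of 17 alternatives and was called lower in the others. Socs3, which restrains Stat3 above all, had the largest CpG over naive difference of the 12, with 406 ± 84.6 CPM in TLR, 354 ± 102 CPM in CpG and 15.0 ± 5.87 CPM in naive cells (CpG over naive 4.57 ± 0.32, edgeR adjusted p = 7.24e-06; TLR over CpG 0.19 ± 0.30, edgeR adjusted p = 0.645). Ptpn1, a phosphatase that acts on Janus kinases, rose with CpG (424 ± 29.8 CPM in CpG and 269 ± 11.1 CPM in naive cells, 0.66 ± 0.13, edgeR adjusted p = 0.00235) and fell to 244 ± 46.6 CPM in TLR cells (-0.80 ± 0.14 over CpG, edgeR adjusted p = 0.00190). Socs5 fell at both steps, with 14.5 ± 1.46 CPM in TLR, 39.1 ± 5.13 CPM in CpG and 60.9 ± 2.48 CPM in naive cells (-1.43 ± 0.15 for TLR over CpG, edgeR adjusted p = 8.18e-05). Pias1, named as an inhibitor of activated STATs, fell to 60.1 ± 0.173 CPM in TLR cells, against 121 ± 8.41 CPM in CpG cells (-1.01 ± 0.11, edgeR adjusted p = 9.16e-05). Sh2b3, the adaptor Lnk, fell with CpG (247.5 ± 27.1 CPM in CpG and 416 ± 33.1 CPM in naive cells, -0.75 ± 0.12, edgeR adjusted p = 0.000975).

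Of the 10 other genes known as Stat5 targets, 5 rose and 1 fell in each of the 2 steps, where 19% of all tested genes rose and 19.8% fell in TLR over CpG and 23.5% rose and 21.9% fell in CpG over naive. In CpG over naive Bcl2l1, Bcl2, Ccnd2, Ccnd3 and Myc rose and Pim3 fell, and in TLR over CpG Bcl2l1, Ccnd2, Myc, Pim3 and Id1 rose and Mcl1 fell. Bcl2l1, the survival gene of BCL-XL, rose to 172 ± 8.34 CPM in TLR cells, against 47.1 ± 4.08 CPM in CpG cells (1.87 ± 0.11, edgeR adjusted p = 5.84e-06) and 8.10 ± 0.204 CPM in naive cells (CpG over naive 2.54 ± 0.11, edgeR adjusted p = 5.78e-07). Ccnd2, the G1 cyclin D2, had 1788 ± 257 CPM in TLR, 524.5 ± 166 CPM in CpG and 132 ± 19.1 CPM in naive cells (1.77 ± 0.25 for TLR over CpG, edgeR adjusted p = 0.000449; 1.99 ± 0.23 for CpG over naive, edgeR adjusted p = 0.000140). Pim3, the third Pim kinase, fell with CpG (25.9 ± 1.07 CPM in CpG and 46.8 ± 6.14 CPM in naive cells, -0.85 ± 0.12, edgeR adjusted p = 0.000466), and rose to 85.2 ± 6.62 CPM in TLR cells (1.72 ± 0.13 over CpG, edgeR adjusted p = 1.64e-05). Myc rose to 360 ± 46.4 CPM in TLR cells, against 124 ± 22.4 CPM in CpG cells (1.54 ± 0.16, edgeR adjusted p = 9.03e-05). Id1, a helix-loop-helix inhibitor, rested on few counts, 60 and 37 in TLR libraries, against 2, 5 and 2 in CpG libraries and 11, 6 and 1 in naive libraries. For Myc the smaller CpG over naive rise (0.54 ± 0.15, edgeR adjusted p = 0.0152) lost its call without naive replicate 1 or CpG replicate 3 (edgeR adjusted p = 0.0583 and 0.0525). These genes are known to answer to many factors besides Stat5.

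Between TLR and naive libraries most lists again held genes of both directions, where 31.6% of all tested genes rose and 29.7% fell. Of the Janus kinases 1 rose (Jak1, 0.85 ± 0.23, edgeR adjusted p = 0.0103) and 2 fell (Tyk2 and Jak2), of the partner chains 2 rose and 2 fell, and of the other receptors 2 rose and 2 fell. The Tyk2 difference was -0.55 ± 0.17 (edgeR adjusted p = 0.0163) and that of Jak2 -0.38 ± 0.15 (edgeR adjusted p = 0.0479). Without TLR replicate 2 the calls of Jak1 (0.50) and Tyk2 (-0.44) were lost. That of Jak2 was lost in 8 of 17 alternatives, among them without either TLR library (-0.26 without replicate 1 and -0.49 without replicate 2), without any one naive library (-0.41 to -0.34), without CpG replicate 2 (-0.37), in RCa18 libraries (-0.30) and with no filter (-0.40). Among the inhibitors 2 rose and 6 fell, with Socs3 at 4.76 ± 0.33 (edgeR adjusted p = 2.46e-06) and Socs5 at -2.07 ± 0.15 (edgeR adjusted p = 3.58e-06). The other known targets had 7 genes that rose and 2 that fell, with Bcl2l1 at 4.41 ± 0.12 (edgeR adjusted p = 9.41e-08) and Myc at 2.08 ± 0.17 (edgeR adjusted p = 5.17e-06). The 2 that fell were Mcl1 (-1.36 ± 0.16, edgeR adjusted p = 5.24e-05) and Osm (-0.78 ± 0.31, edgeR adjusted p = 0.0485). The Osm call was kept in 9 of 17 alternatives.

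The genes whose log2 CPM followed Stat5a most closely over the 8 libraries were Furin (Pearson r = 0.996), Cd3eap (r = 0.995) and Exosc1 (r = 0.994), out of 8864 compared. For Il2ra they were Prelid3b (r = 0.995), Nelfe (r = 0.995) and Shisa3 (r = 0.994), and for Cish Plcxd2 (r = 0.945), Slc2a1 (r = 0.938) and Mief1 (r = 0.935). The 8 libraries fall into 3 groups and differ in depth and prefix, so such values describe mainly the group pattern and carry no test.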

How the data were processed

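The members and gene lists were chosen with earlier results of these data known. Per the labels' protocols, polyA-selected RNA was made into strand-specific libraries. The tools named per the submitters' processing notes are STAR, HTSeq and edgeR, and the build is mm9; versions and annotation are not given in the sources used here. Each deposited file lists raw read counts by gene identifier, and its name says that counting ignored strand. The 5 summary lines of each file were set apart (reads in no gene 7.84% to 15% of lines, ambiguous reads 1.29% to 2.15%). Symbols, exon lengths and overlaps came from GENCODE M21 (GRCm38), which matched 32860 of 37583 identifiers. The lengths may differ from those of the annotation used for counting.

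Counts were fitted in R 4.3.3 with edgeR 4.0.16 (filterByExpr, TMM, quasi-likelihood, all 8 libraries, group means, prior count 0.125), with Benjamini-Hochberg adjustment over 13964 genes and calls at an adjusted p below 0.05. CPM use the TMM factors. The SE is the log2 fold change over the square root of F. The code was checked on simulated counts. DESeq2 1.42.0 and the other alternatives are in the closing section. Likeness used log2 of CPM plus 0.5 for protein-coding genes averaging 8 CPM or more. Pathway genes named are up to 3 called ones per list and comparison by smallest p, the Janus kinases and the common gamma chain cytokines. Others named to list a count (Csf2ra, Bcl2, Ccnd3, Id1, Mcl1, Il15ra, Osm, Pias4, Socs4) or beside a result (Csf2rb, Foxp3, Ptpn6) were chosen after their values were seen. The IRF motif searched was GAAA, any 2 bases, GAAA. Promoters are RefSeq's on GRCm38.p6.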

Additional observations from a re-analysis of the deposited data

How the results depend on the processing

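Alternatives varied the scaling (RLE, library size), the tool (DESeq2), the low-count filter (none, or averages from 1 CPM up), the libraries fitted (the groups being compared, RCa18, all but one) and the model (a replicate block, a prefix term). For the 10 genes, 469 alternative values kept direction and call status, 16 lost a call, 19 gained one and 6 uncalled ones moved by more than their SE. No called value changed sign. Il2ra, Il2rb, Socs1, Pim1 and Pim2 kept their call status in all 3 comparisons under each of these, and Stat5a in both TLR comparisons. Genes called ranged over the left-out libraries from 3516 (without TLR replicate 1; 5417 in the full set) to 5625 for TLR over CpG, from 4888 to 6738 for CpG over naive and from 6990 to 9071 for TLR over naive. With 1 TLR library left, it is assumed to vary like the other groups. In the same order of comparisons, members called ranged from 5 to 6, 5 to 8 and 8 to 9, and pathway genes called from 16 to 22, 22 to 27 and 24 to 31. With the replicate block, in that order, 5541, 6665 and 8602 genes were called and 5, 5 and 8 members. The replicate numbers are not taken as pairs, since the labels do not say that they pair libraries. Deviations from the group means correlated between same-numbered libraries at r = 0.322 and 0.328 for TLR and CpG. The values were 0.145, 0.0919 and 0.0131 for CpG and naive, and 0.105 and -0.000241 for TLR and naive. Between differently numbered libraries r was -0.328 to 0.0592, -0.146 to 0.117 and -0.142 to 0.142 in the same order. The deviations of the 2 TLR libraries mirror each other and number 1 is also prefix RCa1, so these values cannot decide on pairing. Il7r, at -0.02 and not called for TLR over naive, was called at 0.78 with the block, and the cause was not tested. Depth limits Cish, Socs2, Il15 and Epor, which rest on few counts in CpG or TLR libraries.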
